A study of Pyrus pyrifolia with 6 samples.

Results

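The genes described here encode peroxidases, glutathione enzymes and other redox enzymes of pear fruit. They were picked by their descriptions from a deposited table of 4291 genes. A gene was taken where its description named superoxide dismutase, catalase, peroxidase, glutathione, a respiratory burst oxidase, dehydroascorbate, peroxiredoxin, thioredoxin, glutaredoxin or ascorbate oxidase. In all, 40 of the 4291 genes matched. The term catalase matched none of the listed genes.

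The RNA came from fruit pulp of the pear cultivar Akibae (Pyrus pyrifolia), grown in an orchard. The groups were fruit given a boron application (3 libraries, numbered 1 to 3) and fruit labelled CK, the control (3 libraries, numbered 1 to 3). The labels give neither the dose and form of boron, nor the age of the fruit, nor the handling of control fruit. Since no label ties a library to its own tree or fruit, the p-values cover only the spread between these libraries, which may be technical.

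Plant cells make superoxide and hydrogen peroxide both as by-products of photosynthesis and respiration and on purpose, through plasma membrane NADPH oxidases known as respiratory burst oxidase homologs. Superoxide dismutase turns superoxide into hydrogen peroxide. Ascorbate peroxidase, glutathione peroxidase and peroxiredoxin then reduce the peroxide with electrons from ascorbate or from protein thiols, which reductases, thioredoxins and glutaredoxins recycle. Secretory peroxidases, the class III family of plants, work in the cell wall, where they use hydrogen peroxide to couple phenolic compounds such as lignin precursors. In the same wall, boron links pectin chains to each other.

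Every listed gene had been called different by the authors on these same libraries, with an adjusted p under 0.05 and a log2 fold change of 1.00 or more in size in the authors' deposited table. That a member passed a test here is therefore no independent evidence, and the direction, size and spread of its values are what the data add. Values are normalized counts, which are reads divided by a size factor per library. The libraries held 1914312 to 2056668 reads in listed genes. Of the listed genes, 67 to 74 had no read in a boron library and 370 to 437 in a control library. Fold changes (log2, boron over control) with their SE and adjusted p are from limma on log2(normalized count + 1), fitted and adjusted over all 4291 genes. On this scale the change of a gene with few reads is understated.

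Redox enzyme genes did not move as a block. Among the 40 members 26 were higher in boron fruit (65.0%), 13 were lower (32.5%) and 1 did not pass. Over all listed genes, 99.2% passed, 73% higher and 26.2% lower. The median log2 fold change was 1.40 for the members and 1.62 for all listed genes. In 39 members every boron library lay on one side of every control library, and in all listed genes this was so for 97.7% (72% higher in boron fruit and 25.7% lower). Between libraries of a group the members varied by a median CV of 13.8% in boron fruit and 15.8% in control fruit, against 15.5% and 22.8% over all listed genes. In bulk tissue a change in the share of cells that express a gene and a change in mRNA per cell cannot be told apart.

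The count of rises depended on scaling. Rescaling by TMM over the listed genes lowered the median log2 fold change of all listed genes by 1.40, DESeq2-type scaling moved it by -1.35, and quantile normalization by -1.25. With TMM and with DESeq2-type scaling, 11 members were higher and 14 lower (44.0% of those passing were higher, against 66.7% with the authors' size factors). Of all listed genes, 62.3% passed with TMM (33.4% higher and 28.9% lower) and 62.9% with DESeq2-type scaling (34.6% higher and 28.3% lower). With quantile normalization 14 members were higher and 14 lower, while 62.2% of all listed genes passed (35.5% higher and 26.7% lower). These scalings assume that most of the genes given to them are unchanged, and here each gene had been listed for differing. All 13 falls and 8 of the 26 rises kept their direction and passed under the 3 scalings.

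**Figure D1:**
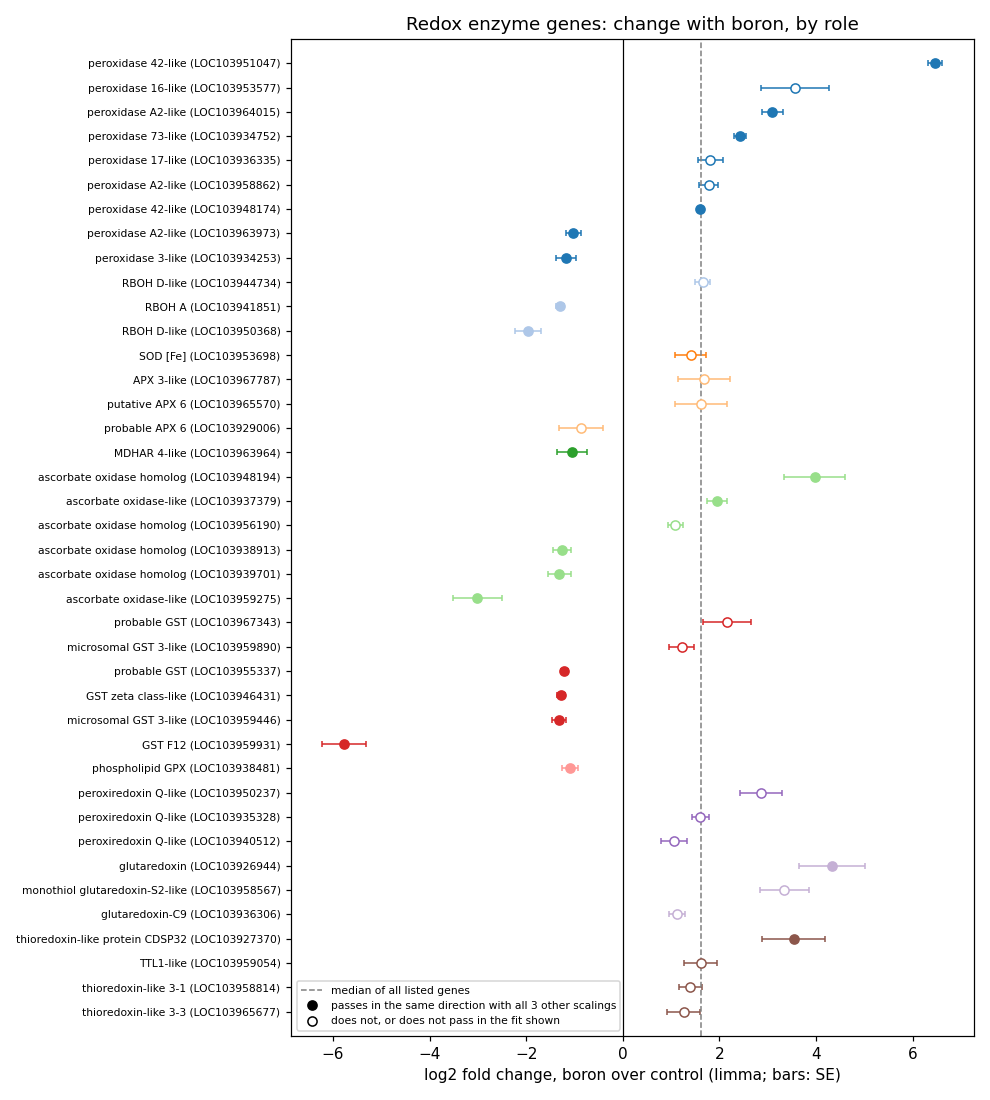
Log2 fold change (boron over control, limma, bars show the SE) of each of the 40 redox enzyme genes, in rows grouped by role, with the median of all listed genes (1.62) as a dashed line. Filled points are the 21 members that also passed in the same direction under the 3 other scalings. With the authors' size factors all 10 peroxiredoxins, glutaredoxins and thioredoxins lie right of 0, though 4 of them turned negative with TMM, while 4 of 6 glutathione S-transferases and the glutathione peroxidase lie left of it. Of all listed genes, 73% were higher and 26.2% lower.

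Of 9 listed secretory peroxidases, 7 rose (77.8%, against 73% of all listed genes) and 2 fell. With TMM 5 were higher and 2 lower, where 33.4% of all listed genes were higher and 28.9% lower. A peroxidase 42-like gene, LOC103948174, had the highest level per kilobase of gene length of the 40 members. Boron libraries 1 to 3 held 54353, 54911 and 55055 normalized counts of it, and control libraries 1 to 3 held 17391, 18312 and 18361. The groups were far apart and the libraries of each group lay close together, and the log2 fold change came to 1.60 ± 0.04 (adjusted p = 1.56e-10 by limma). By level per kilobase this gene ranked 3 among the 4291 listed genes in boron fruit and 17 in control fruit. It alone took 2.89 to 2.96% of listed reads per boron library and 0.854 to 0.905% per control library. Its rise is close to the median of all listed genes, and with TMM scaling its log2 fold change was 0.16, which still passed.

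The other peroxidase 42-like gene, LOC103951047, showed the largest change of the 40 members. Its normalized counts were 1536, 1775 and 1601 in boron fruit and 19.9, 17.7 and 15.1 in control fruit. The groups were far apart, with a 93.1-fold ratio of the means. The log2 fold change was 6.47 ± 0.15 (limma, adjusted p = 1.26e-10), and 5.06 with TMM scaling. Per kilobase of gene length, LOC103948174 still stood 31.1 to 35.6 times above it within boron libraries, and 878 to 1223 times within control libraries. If reads can move between these similarly named copies, both values are uncertain, since no source used here says how reads that match several genes were counted.

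Summed over all 40 members, normalized counts were 63744, 64558 and 63868 in boron libraries and 26972, 28565 and 28966 in control libraries. Without LOC103948174 the sums were 9391, 9647 and 8813 in boron libraries and 9581, 10253 and 10606 in control libraries, so the groups then overlapped. The higher total in boron fruit was thus carried by a single peroxidase gene. The other 8 secretory peroxidases summed to 3120, 3370 and 2973 in boron libraries and to 548, 564 and 636 in control libraries.

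**Figure D2:**
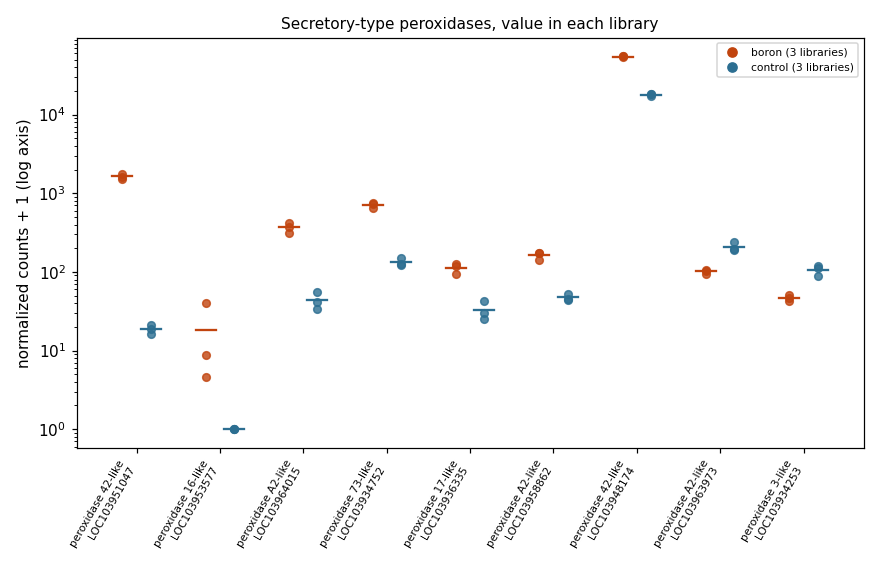
Normalized counts plus 1 (log axis) of the 9 secretory peroxidase genes in each library, boron left and control right for each gene, with a bar at the group mean. In 7 genes every boron point lies above every control point, and in LOC103963973 and LOC103934253 every boron point lies below. Among all listed genes the groups were apart in the same ways for 72% and 25.7%.

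Further peroxidases that rose were a peroxidase 73-like gene, LOC103934752, and a peroxidase A2-like gene, LOC103964015. LOC103934752 had 753, 725 and 658 normalized counts in boron libraries and 124, 122 and 150.1 in control libraries (log2 fold change 2.43 ± 0.13, limma, adjusted p = 2.65e-08). LOC103964015 had 373, 424 and 307 in boron libraries and 32.9, 55.2 and 40.0 in control libraries (3.10 ± 0.22, limma, adjusted p = 2.6e-07). Both passed under each of the other scalings as well.

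The peroxidase A2-like genes did not share a direction. On scaffold NW_008988047.1, LOC103963973 (924068 to 926624, plus strand) lies 10.1 kb before LOC103964015 (936687 to 938709, plus strand), with no other listed gene between them. LOC103963973 had 106, 103 and 94.2 normalized counts in boron libraries and 188, 195 and 239 in control libraries (log2 fold change -1.03 ± 0.16, limma, adjusted p = 0.000115). Its boron values all lay below its control values, the reverse of its neighbour. Per kilobase, LOC103964015 stood at 3.66 to 4.63 times LOC103963973 within boron libraries and at 0.188 to 0.318 times within control libraries. The A2-like gene on another scaffold, LOC103958862, rose (162 ± 19.6 in boron libraries and 46.5 ± 4.73 in control libraries, SD, n = 3 each), a call lost with TMM scaling (log2 fold change 0.35).

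Among the remaining peroxidases, the peroxidase 17-like gene LOC103936335 rose, with 111 ± 16.9 normalized counts in boron libraries and 31.6 ± 9.09 in control libraries (SD, n = 3 each), but not with TMM scaling (log2 fold change 0.40). The peroxidase 3-like gene LOC103934253 fell, with 45.8 ± 3.70 and 105 ± 15.0. A peroxidase 16-like gene, LOC103953577, had no read in any control library, while the boron libraries held 39.7, 3.61 and 7.85 normalized counts. Boron library 1 stands apart there, at 6.94 times the mean of the other two. Set against a floor of 3 reads over the control group, the boron mean was at least 16.2-fold higher, and at least 5.43-fold higher without boron library 1. Such bounds cover counting error only. Its call was lost with quantile normalization, where the log2 fold change was 1.30.

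Partner genes of lignin formation, the other side of the wall reaction, were higher about as often as listed genes in general. Of 24 listed genes for laccases, dirigent proteins and enzymes of the monolignol pathway, 17 rose (70.8%, against 73% of all listed genes) and 7 fell, or 8 and 7 with TMM. Laccase-4 (LOC103959581) had 19.4 ± 3.62 normalized counts in boron libraries and 4.25 ± 4.76 in control libraries (SD, n = 3 each), and a 4-coumarate--CoA ligase 1 gene (4CL) had 177 ± 31.4 and 42.3 ± 4.58. The cinnamoyl-CoA reductase genes went both ways: LOC103960452, described as reductase-like SNL6, had 470 ± 18.5 in boron libraries and 134 ± 38.0 in control libraries, and LOC103945355 had 65.1 ± 8.95 and 365 ± 28.4. The largest fall and the largest rise of the 24 genes were also among them. Reductase 1-like LOC108867111 fell, with 0.646 ± 1.12 in boron libraries and 176 ± 38.5 in control libraries. Reductase-like SNL6 LOC103965844 rose, with 22.8 ± 12.7 and 0.332 ± 0.576.

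Of the genes that produce superoxide, the 3 listed respiratory burst oxidase homologs split, with 1 higher and 2 lower in boron fruit. Of all listed genes, 73% were higher and 26.2% lower, or 33.4% and 28.9% with TMM. The highest of the 3 homologs per kilobase in both groups, homolog A (LOC103941851), had 512, 489 and 455 normalized counts in boron libraries and 1094, 1226 and 1276 in control libraries. It fell in boron fruit, with every boron library below every control library (log2 fold change -1.30 ± 0.09, limma, adjusted p = 2.79e-07). A homolog D-like gene, LOC103944734, went the other way, with 364, 343 and 280 in boron libraries and 105, 113 and 92.9 in control libraries (1.65 ± 0.16, limma, adjusted p = 2.62e-06). In Arabidopsis, the D homolog is known for the oxidative burst of immune and stress responses. Per kilobase, LOC103944734 stood at 0.576 to 0.668 of homolog A within boron libraries and at 0.0683 to 0.0898 within control libraries. A second D-like gene, LOC103950368, fell (14.9 ± 0.973 in boron libraries and 60.8 ± 5.07 in control libraries, SD, n = 3 each). With TMM scaling the rise of LOC103944734 did not pass (log2 fold change 0.22) and both falls did.

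Superoxide dismutase was represented by a single gene, the chloroplast iron enzyme LOC103953698. It had 36.8, 68.5 and 54.0 normalized counts in boron libraries and 21.9, 16.7 and 18.4 in control libraries. The groups did not overlap, though boron values spread widely (log2 fold change 1.40 ± 0.32, limma, adjusted p = 0.00151), and with TMM scaling the log2 fold change was 0.0092 and did not pass.

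Terms for other oxidases that release hydrogen peroxide gave 6 rises and 8 falls among 15 listed genes, and 1 gene did not pass. With TMM 4 were higher and 9 lower. Of all listed genes, 73% were higher and 26.2% lower with the authors' size factors. The rises included a germin-like gene, LOC103956410, whose description names no oxidase. Both peroxisomal (S)-2-hydroxy-acid oxidases, enzymes of photorespiration, rose, with 73.8 ± 3.32 and 39.7 ± 18.2 normalized counts in boron fruit against 8.25 ± 2.48 and 1.40 ± 0.659 in control fruit for LOC103939610 and LOC103936200 (SD, n = 3 each). Acyl-coenzyme A oxidase, the first step of fatty acid breakdown in peroxisomes, fell in LOC103967012, with 154 ± 30.9 in boron libraries and 639 ± 37.6 in control libraries. Indole-3-acetaldehyde oxidase-like LOC103958137 had 28.7 ± 3.32 in boron libraries and 879 ± 70.5 in control libraries.

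Ascorbate peroxidase, which spends ascorbate on hydrogen peroxide, had 3 listed genes, and 2 of them rose with the authors' size factors but with none of the other scalings. Of all listed genes, 73% were higher with the authors' size factors and 33.4 to 35.5% with the other scalings. The peroxisomal APX3-like gene LOC103967787 had 17.4, 33.4 and 31.4 normalized counts in boron libraries and 15.0, 8.33 and 3.24 in control libraries (log2 fold change 1.67 ± 0.54, limma, adjusted p = 0.0111). Quantile normalization put it at -0.0054. A putative APX6 gene, LOC103965570, had 51.4, 41.5 and 33.4 in boron libraries and 18.9, 23.9 and 4.32 in control libraries (1.62 ± 0.54, limma, adjusted p = 0.0134). In both genes the groups lay close, with the lowest boron library not far above the highest control library. Control library 3 was the lowest of each. For LOC103965570 the log2 fold change was 0.93 without it, and the call was lost without boron library 1 (limma, adjusted p = 0.0513, with 0.00258 to 0.805 over the alternatives).

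The other gene, a probable chloroplast APX6 (LOC103929006), was the only member of the 40 that did not pass, and the only one whose groups overlapped. It had 73.7, 44.2 and 55.0 normalized counts in boron libraries and 251, 71.8 and 60.5 in control libraries. Control library 1 stood at 3.80 times the mean of the other control libraries. The log2 fold change was -0.86 ± 0.46 (limma, adjusted p = 0.0905, with 0.0022 to 0.438 over the alternatives), and -0.22 without control library 1. In the authors' deposited table the gene is listed with a log2 fold change of -1.15 and an adjusted p of 0.0242.

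Monodehydroascorbate reductase, which returns oxidized ascorbate to its reduced form, had 1 listed gene, the peroxisomal isoform 4-like LOC103963964. It fell, with 29.1, 19.8 and 35.3 normalized counts in boron libraries and 59.8, 73.9 and 44.3 in control libraries (log2 fold change -1.06 ± 0.31, limma, adjusted p = 0.00661). Its counterpart in the same compartment by name, APX3-like LOC103967787, rose with the authors' size factors, as given above.

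Ascorbate oxidase and its homologs, multicopper oxidases of the cell wall space, numbered 6, with 3 rises and 3 falls, or 2 and 3 with TMM. Of all listed genes, 73% were higher and 26.2% lower, or 33.4% and 28.9% with TMM. The highest of the 6 per kilobase were homologs. LOC103939701 fell, with 239, 408 and 248 normalized counts in boron libraries and 527, 790 and 905 in control libraries (log2 fold change -1.32 ± 0.23, limma, adjusted p = 0.00035). LOC103956190 rose, with 424, 524 and 371 in boron libraries and 215, 175 and 228 in control libraries (1.08 ± 0.16, limma, adjusted p = 6.74e-05), but turned to -0.35 with TMM and -0.31 with DESeq2-type scaling. LOC103938913 fell, with 105, 105 and 81.5 in boron libraries and 286, 213 and 208 in control libraries. In each of these 3 genes the groups stayed apart, and their libraries spread more than those of peroxidase LOC103948174.

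The ascorbate oxidase-like gene LOC103937379 rose, with 133, 133 and 139 normalized counts in boron libraries and 31.9, 39.5 and 31.3 in control libraries (log2 fold change 1.95 ± 0.20, limma, adjusted p = 5.61e-06), and passed under each scaling. Another ascorbate oxidase-like gene, LOC103959275, had no read in any boron library and 4.99, 4.16 and 16.2 normalized counts in control fruit, at least 8.75-fold lower in boron fruit, or at least 4.83-fold lower without control library 3. A homolog annotated as a transcribed pseudogene, LOC103948194, had 39.7, 47.8 and 49.1 in boron libraries and 3.99, 4.16 and 0 in control libraries (log2 fold change 3.97 ± 0.64, limma, adjusted p = 0.00015, or 3.19 without control library 3). It lies on the scaffold of the peroxidase 42-like gene LOC103948174, 143 kb from it.

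The terms for ascorbate synthesis matched 4 listed genes, all of them inositol oxygenases, which feed a minor route. Of these 3 rose and 1 fell, or 2 and 1 with TMM, while 73% of all listed genes were higher and 26.2% lower. The highest of them per kilobase, LOC103943163, fell to 495 ± 24.9 normalized counts in boron fruit, against 1113 ± 116 in control fruit (SD, n = 3 each).

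**Figure D3:**
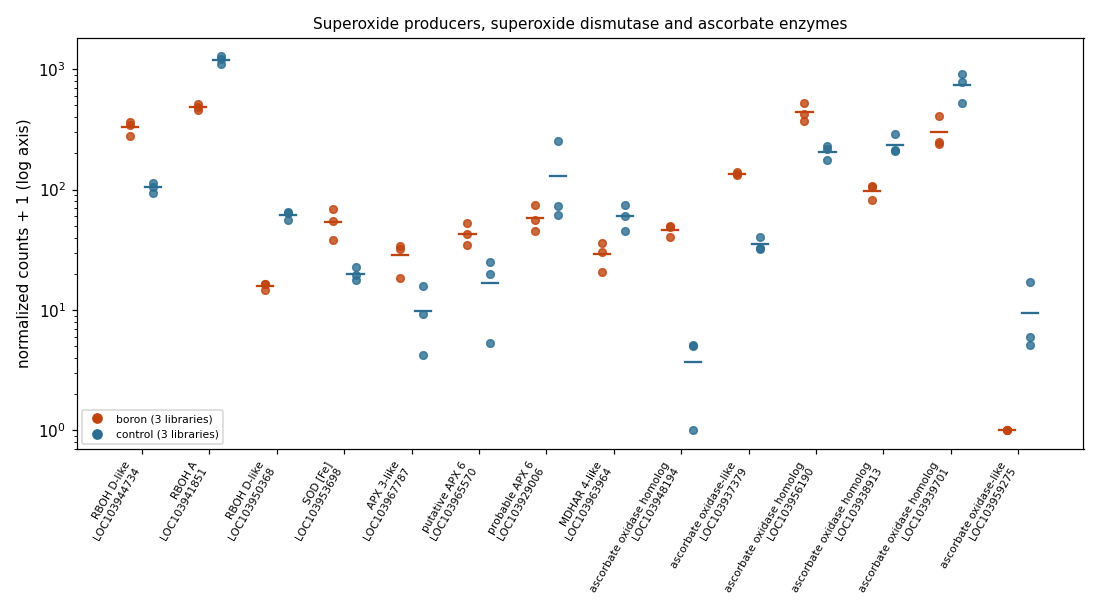
Normalized counts plus 1 (log axis) in each library for 3 respiratory burst oxidases, the iron superoxide dismutase, 3 ascorbate peroxidases, monodehydroascorbate reductase and 6 ascorbate oxidases or homologs, boron left and control right for each gene, with a bar at the group mean. The groups overlap only in LOC103929006, where control library 1 (251) lies far above the other control libraries.

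Glutathione S-transferases, which join glutathione to toxic or oxidized compounds or carry flavonoids, were mostly lower. Of 6 listed genes 4 fell and 2 rose, where 73% of all listed genes were higher and 26.2% lower. Under each of the 3 other scalings 4 were lower and none higher. Of all listed genes, 26.7 to 28.9% were then lower and 33.4 to 35.5% higher. No difference between these shares was tested. The summed level was 1974, 1827 and 1961 normalized counts in boron libraries and 4343, 4500.1 and 4536 in control libraries. A pair of genes carried most of it. A probable glutathione S-transferase, LOC103955337, had 968, 870.0 and 849.9 in boron libraries and 1927, 2134 and 2152 in control libraries (log2 fold change -1.21 ± 0.08, limma, adjusted p = 1.98e-07). The zeta class-like gene LOC103946431, of a class known for a step of tyrosine breakdown, had 807, 766 and 911 in boron libraries and 2000.3, 1989.9 and 2059 in control libraries (-1.29 ± 0.08, limma, adjusted p = 1.23e-07). In both genes the groups were far apart against the spread within each, and every fall held under the alternatives run.

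Glutathione S-transferase F12 (LOC103959931) was not seen in boron fruit. It had 0 reads in each boron library and 53.8, 73.9 and 38.9 normalized counts in control libraries, at least 58.7-fold lower in boron fruit against a floor of 3 reads over the group (log2 fold change -5.77 ± 0.45, limma, adjusted p = 6.29e-07). In Arabidopsis, the F12 enzyme is needed for anthocyanins to collect in the vacuole. It lies on the scaffold of the microsomal gene LOC103959890, which rose, 399.9 kb away and with 7 listed genes between them.

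Microsomal glutathione S-transferase 3-like genes, membrane proteins of another family with the same activity, split. LOC103959446 fell, with 115, 115 and 109.9 normalized counts in boron libraries and 334, 271 and 259 in control libraries (log2 fold change -1.33 ± 0.15, limma, adjusted p = 9.46e-06). LOC103959890 rose, with 63.0, 55.9 and 52.0 in boron libraries and 22.9, 23.9 and 24.8 in control libraries (1.22 ± 0.25, limma, adjusted p = 0.000873), but was below 0 with each other scaling (-0.19, -0.14 and -0.017). A probable glutathione S-transferase, LOC103967343, also rose (26.2 ± 10.5 in boron libraries and 5.18 ± 2.75 in control libraries, SD, n = 3 each), and did not pass under the other scalings.

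The glutathione peroxidase listed, a probable phospholipid hydroperoxide enzyme that repairs oxidized membrane lipids (LOC103938481), fell as well. It had 852, 909.6 and 657 normalized counts in boron libraries and 1290.3, 1885 and 2024 in control libraries (log2 fold change -1.09 ± 0.17, limma, adjusted p = 0.000113). Control library 1 was nearest to the boron libraries, and the groups did not overlap.

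Sulfate uptake and assimilation supply the cysteine of glutathione. Terms for them and for glutathione turnover matched 11 listed genes. With the authors' size factors, the higher ones included gamma-glutamylcyclotransferase 2-3 (LOC103953177), a glutathione turnover gene, and adenylyl-sulfate kinase 3-like LOC103944407. Where 73% of all listed genes were higher and 26.2% lower, 4 of these 11 were higher and 7 lower. TMM scaling left 2 of the 11 higher and 7 lower. The highest per kilobase, a sulfate transporter 3.1-like gene (LOC103960102), had 898 ± 13.8 normalized counts in boron libraries and 8387 ± 564 in control libraries (SD, n = 3 each). Adenylyl-sulfate kinase 1 (LOC103952645), which diverts activated sulfate to other products, had 154, 215 and 195 in boron libraries and 878, 866 and 888 in control libraries. A sulfate transporter 3.3 gene (LOC103931870) ran the other way, with 122 ± 24.6 in boron libraries and 14.5 ± 1.81 in control libraries.

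With the authors' size factors, thiol redox genes all rose: 3 of 3 peroxiredoxins, 3 of 3 glutaredoxins and 4 of 4 thioredoxins were higher in boron fruit, where 73% of all listed genes were higher. With TMM, 4 of these 10 were higher and none lower, while the fitted log2 fold changes of LOC103936306, LOC103940512, LOC103958814 and LOC103965677 turned negative without passing.

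The peroxiredoxins are of the Q type, chloroplast thiol peroxidases. LOC103935328 had 206, 188 and 187 normalized counts in boron libraries and 69.8, 52.0 and 69.1 in control libraries (log2 fold change 1.60 ± 0.18, limma, adjusted p = 1.04e-05, 0.18 with TMM). LOC103940512 had 52.3, 47.8 and 70.7 in boron libraries and 30.9, 25.0 and 23.8 in control libraries. Another copy, LOC103950237, had 9.69, 3.61 and 6.87 in boron libraries and 0 reads in each control library, at least 6.40-fold higher. Per kilobase in boron fruit, LOC103935328 stood at 194 normalized counts, LOC103940512 at 55.3 and LOC103950237 at 6.64. All 3 were higher with the authors' size factors, but only LOC103950237 passed with TMM, and LOC103940512 was below 0 with each of the other scalings.

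Glutaredoxins, small proteins that use glutathione to reduce disulfides, held the gene of highest level per kilobase among these 10. Glutaredoxin-C9 (LOC103936306), a type that in Arabidopsis binds TGA transcription factors, had 804, 755 and 809.7 normalized counts in boron libraries and 495, 328 and 289 in control libraries (log2 fold change 1.13 ± 0.17, limma, adjusted p = 9.26e-05), but -0.31 with TMM and -0.26 with DESeq2-type scaling. Its boron libraries were tight and its control libraries spread, with control library 1 highest. The gene described only as glutaredoxin, LOC103926944, had 39.7, 32.5 and 34.3 in boron libraries and 4.99, 0 and 0 in control libraries (4.32 ± 0.69, limma, adjusted p = 0.000136, and 5.19 without control library 1). Monothiol glutaredoxin-S2-like LOC103958567 had 3.88, 13.5 and 13.7 in boron libraries and 0 reads in each control library, at least 10.1-fold higher. LOC103950237 and LOC103958567 lost their call with quantile normalization, as did peroxidase 16-like LOC103953577, the only other member without a read in control fruit.

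Thioredoxins and their relatives, which reduce disulfides in target proteins, were led in change by CDSP32 (LOC103927370), a plastid protein known in potato for its induction by drought. It had 22.3, 30.7 and 44.2 normalized counts in boron libraries and 2.99, 0 and 4.32 in control libraries (log2 fold change 3.54 ± 0.65, limma, adjusted p = 0.00039, or 2.80 without control library 2). The chloroplast thioredoxin-like 3-1 gene (LOC103958814) had 140, 105 and 78.5 in boron libraries and 36.9, 39.5 and 41.0 in control libraries. Thioredoxin-like 3-3 (LOC103965677) had 83.4, 53.2 and 98.1 in boron libraries and 49.9, 23.9 and 24.8 in control libraries, so that its lowest boron library was just above control library 1. TTL1-like LOC103959054, whose Arabidopsis relative acts in osmotic stress responses, had 42.6, 38.8 and 32.4 in boron libraries and 8.97, 13.5 and 13.0 in control libraries.

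**Figure D4:**
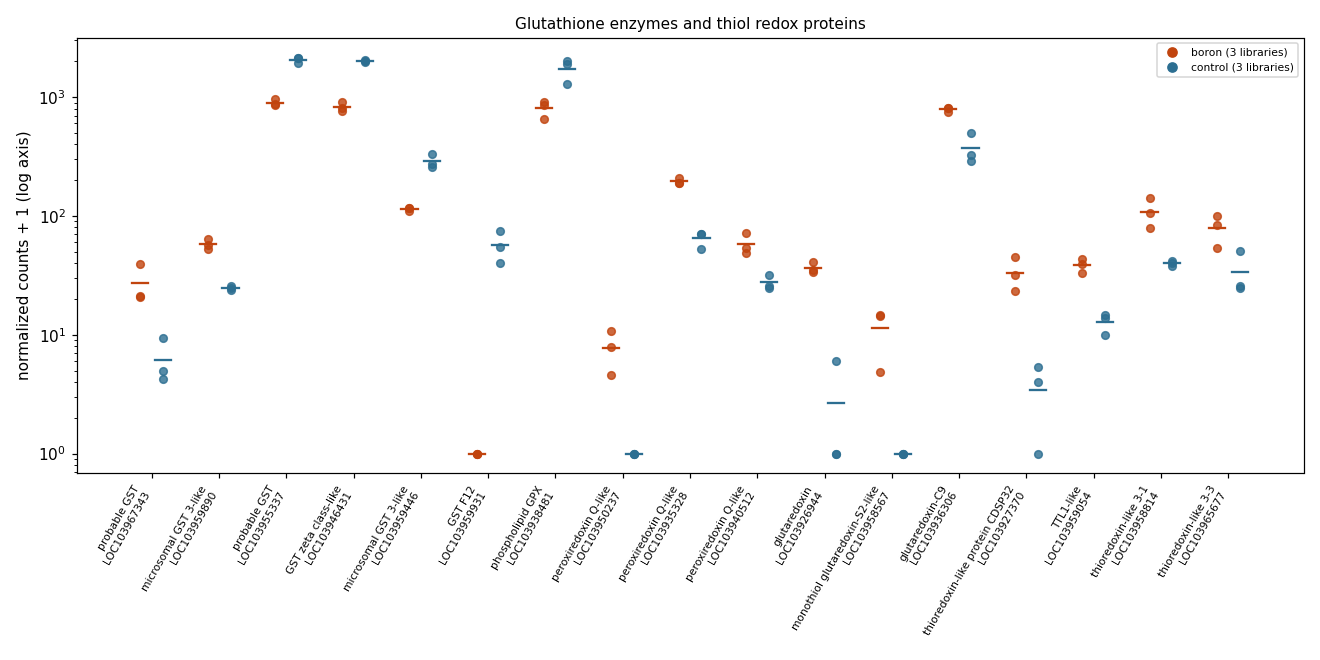
Normalized counts plus 1 (log axis) in each library for 6 glutathione S-transferases, the glutathione peroxidase, 3 peroxiredoxins, 3 glutaredoxins and 4 thioredoxins, boron left and control right for each gene, with a bar at the group mean. The glutathione S-transferases LOC103955337 and LOC103946431 and the glutathione peroxidase lie lower in boron libraries, and all 10 thiol redox genes lie higher with the authors' size factors, 4 of which turned negative with TMM.

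Of the 7 members described as chloroplastic, 6 rose and the APX6 gene LOC103929006 did not pass. With TMM, 2 of them were higher and 1 lower. Markers of green tissue moved in the same direction: 52 of 53 listed genes for chlorophyll a-b binding proteins, photosystem subunits and oxygen-evolving proteins were higher, with summed levels of 11547 to 12428 normalized counts in boron libraries and 2074 to 2104 in control libraries. The exception was a psbY-like gene, LOC103926797, and 6 of the 53 had 0 reads in each control library. Among peel markers 5 of 6 were higher (985 to 1083 summed in boron libraries, 191 to 228 in control libraries). These 5 were all non-specific lipid-transfer proteins, and the protein 1-like LOC103963303 had 0 reads in each control library. The remaining peel marker, LOC103935723, described by a WAX2 C-terminal domain, was lower. It had 0.646 ± 1.12 normalized counts in boron libraries and 34.7 ± 8.14 in control libraries (SD, n = 3 each). All 3 vascular markers were higher (543 to 632 and 134 to 161). Of 6 seed markers 5 were higher, while their sum was 1905 to 2044 in boron libraries and 2309 to 2590.1 in control libraries, since legumin B-like LOC103946296, the highest of them in control fruit, was lower. The only gene matched by the terms for microbes or viruses, LOC103951394, is a pear gene named for a bacterial homolog. These counts stand beside a share of 73% higher among all listed genes. With TMM, 47 green tissue, 5 peel, 2 vascular and 3 seed markers were higher, and 1, 1, 0 and 1 lower. Of all listed genes, 33.4% were then higher and 28.9% lower. The part of these tissues in the results for redox genes was not tested.

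Of 14 listed genes that supply reducing power or take up electrons, 11 were higher (78.6%, against 73% of all listed genes) and 3 lower. The ubiquinol oxidases and the ferredoxin--nitrite reductase among them take up electrons. A chloroplast glucose-6-phosphate 1-dehydrogenase (LOC103961428), the entry of the oxidative pentose phosphate pathway, had 188 ± 1.44 normalized counts in boron libraries and 20.5 ± 4.11 in control libraries (SD, n = 3 each). Another, isoform 4 (LOC103955874), fell to 745 ± 19.9 in boron libraries, against 1649.9 ± 43.1 in control libraries. With TMM 7 were higher and 3 lower. Terms for repair, detoxification and metal binding matched 19 genes, of which 8 rose and 11 fell, or 1 and 13 with TMM. Of all listed genes, 73% were higher and 26.2% lower with the authors' size factors. The term quinone oxidoreductase also matched mitochondrial and chloroplastic NAD(P)H enzymes not named for repair (LOC103966280, LOC103945063 and LOC103946767), which rose. Ferritins, which store iron, went both ways: ferritin-4 (LOC103930157) had 1053 ± 45.8 in boron libraries and 3368 ± 225 in control libraries, and ferritin-3 (LOC103958647) had 814 ± 219 and 353 ± 23.9. The metallothionein-like genes matched by these terms all fell. The highest of them per kilobase, LOC103944925, had 31410 ± 1253 in boron libraries and 77345.5 ± 4792 in control libraries.

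Of the 17 members with a mean of at least 100 normalized counts, 9 rose and 8 fell, while 99.9% of all listed genes at that level passed, 62.2% higher and 37.7% lower. Of the 23 members below that level, 17 rose, 5 fell and 1 did not pass, while 79.9% of all listed genes below it were higher. With TMM and with DESeq2-type scaling, 4 members were higher and 8 lower at the upper level, and 7 higher and 6 lower below it. At the upper level 33.3% of passing members were thus higher. Over all passing listed genes of that level this was 38.9% with TMM and 40.4% with DESeq2-type scaling. Below it 53.8% of passing members were higher, against 65.7% and 66.6% of passing listed genes. No difference between these shares was tested. Per kilobase, the members that fell with the highest levels were the glutathione peroxidase and the glutathione S-transferases LOC103955337 and LOC103946431. The median gene length of the members was 1230 bases against 1613 for all listed genes.

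**Figure D5:**
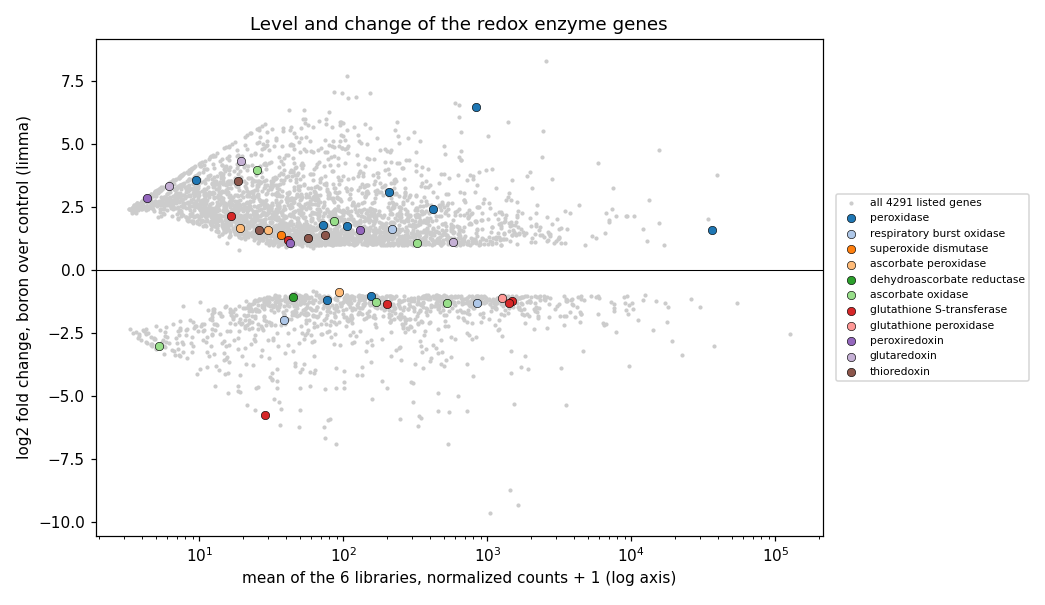
Mean of the 6 libraries (normalized counts plus 1, log axis) against log2 fold change (boron over control, limma) for the 40 redox enzyme genes, coloured by role, over all 4291 listed genes in grey. The peroxidase 42-like genes stand out, LOC103948174 by its level and LOC103951047 by its log2 fold change of 6.47, and few genes lie near 0 because the authors' list holds only genes past a fold threshold.

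After transcript variant labels were dropped, 8 descriptions were held by more than 1 member. With the authors' size factors, the copies in 6 of them split between rises and falls: the ascorbate oxidase homologs, the ascorbate oxidase-like genes, the microsomal and the probable glutathione S-transferases, the peroxidase A2-like genes and the respiratory burst homolog D-like genes. With TMM or DESeq2-type scaling 3 descriptions had passing copies in both directions, the ascorbate oxidase homologs, the ascorbate oxidase-like and the peroxidase A2-like genes, and with quantile normalization 4, the respiratory burst homolog D-like genes as well. Both peroxidase 42-like copies rose with every scaling. The 3 peroxiredoxin Q copies rose with the authors' size factors, while 1 of the 3 passed with each TMM, DESeq2-type and quantile fit. Reads of copies may have been shared or split in counting, so that values of single copies are uncertain. The 40 members lay on 35 scaffolds, and 5 pairs shared a scaffold, of which 3 pairs had the same direction and 2 had opposite ones. Of all listed genes, 73% were higher and 26.2% lower with the authors' size factors, and 33.4% and 28.9% with TMM. How often copies or pairs on a scaffold split among all listed genes was not counted.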

How the data were processed

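Reads of 3 boron and 3 control libraries had been aligned with HISAT2, per the submitters' processing notes. No source used here gives the counting tool, strand use or genome build; scaffold positions are as deposited. The values deposited by the authors are normalized counts (unit signal): in every library 100% of values were whole reads divided by 1 size factor (tolerance 0.001 reads), with size factors of 0.926 to 1.11. The deposited table also gives the authors' log2 fold change and adjusted p-value. A further deposited file gives 1 score per gene for 42194 genes.

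The fit took all 4291 listed genes as log2(normalized count + 1) into limma 3.58.1 under R 4.3.3, with trend and robust settings. Tests were two-sided, p-values were adjusted by Benjamini-Hochberg, and the threshold was 0.05. Depth per library in listed genes was 1914312 to 2056668 reads. Bounds for genes at 0 use a floor of 3 reads over the group and cover counting error only. Levels of different genes were compared per kilobase of the deposited gene length, while sums over a group of genes, and the mean filters, use normalized counts without length. Alternatives were TMM, DESeq2-type and quantile scaling, pseudocounts of 0.5 and 5, mean filters of 10 and 100, edgeR 4.0.16 quasi-likelihood and DESeq2 1.42.0 on recovered reads, limma without trend and robust, a replicate block, leaving out each library, 1 entry per description and leaving out homolog names. The fit was tested on simulated data in which most genes were unchanged. Since 99.2% of the listed genes passed, that setting differs from the data and does not show how the fit behaves on them.

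The members, the pathway lists and the marker lists were chosen with earlier results of these data known. In role groups of up to 5 genes all were named. In larger groups the 3 with the highest mean in the higher group were named, with the 3 of largest absolute log2 fold change among those that passed, did not overlap and reached a mean of 50. Of the 40 members, 31 were named by that rule and 9 after their values were seen (LOC103948194, LOC103959275, LOC103967343, LOC103959890, LOC103953577, LOC103936335, LOC103958862, LOC103963973 and LOC103934253). The genes named from pathway and marker lists were also chosen after their values were seen.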

Additional observations from a re-analysis of the deposited data

How the results depend on the processing

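With the authors' size factors 26 members were higher and 13 lower. The higher count was 11 with TMM, 11 with DESeq2-type scaling and 14 with quantile normalization; the cause was not tested beyond the shift of all listed genes given above. With a mean of at least 100 normalized counts, 9 were higher and 8 lower, of fewer genes tested. Leaving out each library gave 25 to 26 higher and 13 to 14 lower. In the 14 alternatives other than scaling, 38 of 40 members kept direction and side of the threshold, the exceptions being LOC103965570 and LOC103929006. LOC103929006, at -0.86, passed with 6 alternatives, DESeq2 and the replicate block among them.

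Log2 fold changes above 0 turned below 0 in 7 members. With TMM they were -0.35 for LOC103956190, -0.31 for LOC103936306, -0.19 for LOC103959890, -0.34 for LOC103940512, -0.015 for LOC103958814 and -0.15 for LOC103965677. With DESeq2-type scaling they were -0.31 for LOC103956190, -0.26 for LOC103936306, -0.14 for LOC103959890, -0.30 for LOC103940512 and -0.10 for LOC103965677. With quantile normalization they were -0.0054 for LOC103967787, -0.017 for LOC103959890 and -0.17 for LOC103940512.

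Replicate numbers are shared between groups, and no label says whether they pair the samples. The deviations of same-numbered libraries correlated at -0.013, 0.026 and -0.039. With 3 libraries per group such values cannot show whether the samples were paired. With the replicate block 26 members were higher and 14 lower. Genes with few reads limit precision, as 4 members had a mean under 10 normalized counts.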

Other observations

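A deposited score per gene, which rises with the difference between group means relative to the spread within groups, covers 42194 genes and includes the 40 members. The authors' score had the sign of the fitted log2 fold change in each of the 40. It was above 2 for 14 members and below -2 for 6. Peroxidase 42-like LOC103951047 scored 4.89 and ranked 6 from the top of the 42194 genes. Peroxidase A2-like LOC103964015 scored 3.83 (315 from the top), and the ascorbate oxidase homolog pseudogene LOC103948194 scored 3.74 (353 from the top). At the other end, respiratory burst homolog D-like LOC103950368 scored -3.04 (203 from the bottom) and glutathione S-transferase F12 LOC103959931 scored -2.78 (277 from the bottom). These scores come from the same libraries and add no independent evidence.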
